A study of Drosophila melanogaster with 9 samples.

Results

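The genes described here encode subunits of the 5 complexes of oxidative phosphorylation. They were chosen by name, as every nuclear gene whose symbol begins with ND- (complex I), Sdh (complex II), UQCR- (complex III), COX (complex IV) or ATPsyn (ATP synthase, complex V). The rule took 81 of 16854 genes, with 40 in complex I, 7 in complex II, 8 in complex III, 11 in complex IV and 15 in ATP synthase. The name rule also took Sdhaf3, which encodes an assembly factor of complex II and not a subunit. Each gene was placed in a complex by its name alone.

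Oxidative phosphorylation runs in the inner membrane of the mitochondrion. Complex I takes electrons from NADH and complex II takes them from succinate, both pass them through ubiquinone to complex III, and cytochrome c carries them on to complex IV, which reduces oxygen. Complexes I, III and IV pump protons as the electrons pass, and ATP synthase uses the proton gradient to make ATP. Neurons draw much of their ATP from this route for ion pumping and synaptic transmission, and most subunits are encoded in the nucleus and imported, while a few are encoded by the mitochondrial genome (not analysed here).

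RNA was measured in 3 populations sorted from Drosophila brains whose optic lobes had been removed. Kenyon cells (KC), the intrinsic neurons of the mushroom body, carried GFP driven by MB247:LexA, olfactory projection neurons (PN) carried tomato driven by GH146:Gal4, and the double negative cells (DN) carried neither. All groups had the same genotype, in which GH146:Gal4>UAS:tomato stands over the balancer CyO, while MB247:LexA>LexAop:GFP stands over the balancer TM2, with males and females pooled. Pupae were dissected 45 h after puparium formation (45 h APF), with 1 pooled library per cell type, and adults, with 2 libraries per cell type. The deposited table holds 1 column per cell type and stage, so that each adult value below is the authors' mean and no value has an error of its own. Each driver marks the cells in which its enhancer is active, not the whole population, and DN holds every other cell of the dissociated brain, glia included.

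Values are FPKM, fragments counted per length of transcript and per sequencing depth, which can be compared between genes because they are given per length. The 6 columns summed to 611610 to 1055100 FPKM, lower in the adult than in the pupa. Pupal depth, inferred from the steps between low values at an assumed fragment length, was 23.9 to 32.1 M reads or a multiple of that. Adult libraries were read for 50 bases and pupal libraries for 75 bases on another sequencer, so stage, read length and sequencer cannot be told apart. The Kenyon cell gene ey stood at 228, 1.21 and 5.42 FPKM in pupal KC, PN and DN and at 275, 0.143 and 7.58 FPKM in the adult, and Oaz, a gene of projection neurons, at 66.0 FPKM in PN of the pupa and 172 FPKM in PN of the adult, with at most 0.255 in any other column. Not every marker of these 2 cell types was as clear. Of 8 Kenyon cell markers, 7 were higher in KC than in PN and 6 higher than in DN at 45 h APF. In the adult these counts were 6 and 8. Of 6 projection neuron markers, 5 were higher in PN than in DN at 45 h APF and 6 in the adult. Glia markers (8 genes) summed to 196, 2006 and 870 FPKM in pupal KC, PN and DN and to 186, 155 and 374 FPKM in the adult. Muscle markers (10 genes) summed to 303 FPKM in DN at 45 h APF and to at most 17.2 FPKM in the other 5 columns. The muscle gene Mhc was listed at 0 in 4 of the columns and was highest, at 0.872 FPKM, in DN at 45 h APF.

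The subunit genes fell into an abundant and a nearly silent class with nothing between them. Of the 81 genes, 18 carry the name of another gene followed by L, which marks a paralog, and 63 do not. Of these 63 genes, 62 stood at 76.7 FPKM or more in every column. Their median was 772, 680.4 and 576 FPKM in pupal KC, PN and DN and 695, 806 and 931 FPKM in the adult. The exception was ND-B8, a small accessory subunit gene of complex I, with at most 0.538 FPKM in any column. By contrast, no paralog passed 4.77 FPKM in any column, 15 of the 18 stayed under 1 FPKM throughout, and COX6AL, ND-20L, SdhBL and UQCR-14L were listed at 0 in every column.

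The most abundant of all was ATPsynC (chromosome 3R, 31216145 to 31219630, Ensembl annotation of BDGP6, the assembly also called dm6), which encodes the ring of the ATP synthase rotor. Its FPKM was 3424, 4532 and 2956 in pupal KC, PN and DN and 3287, 5949.6 and 2520.1 in the adult, so PN stood highest at both stages. COX8, a small subunit of complex IV, came next and overtook ATPsynC in adult DN, with 2401, 2408 and 2165 FPKM at 45 h APF and 2507, 3049.6 and 3494 FPKM in the adult. ATPsynbeta, the catalytic subunit of ATP synthase, stood at 1826, 2384 and 1885 FPKM at 45 h APF and at 2011, 2523 and 2099 FPKM in the adult, a narrow range over all 6 columns. Complexes I and II were the lower ones: the median gene of complex I that is no paralog had 463, 378 and 348 FPKM at 45 h APF and 435, 535 and 572 FPKM in the adult, against 1598, 1368 and 1209 FPKM and then 1376, 1615 and 1713 FPKM for ATP synthase. ND-MLRQ and ND-B12 led the genes with the ND- prefix. ND-MLRQ, placed in complex I by its name only, had 1140.2, 1129 and 1285 FPKM at 45 h APF and 1037, 1431 and 1292 FPKM in the adult.

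**Figure D1:**
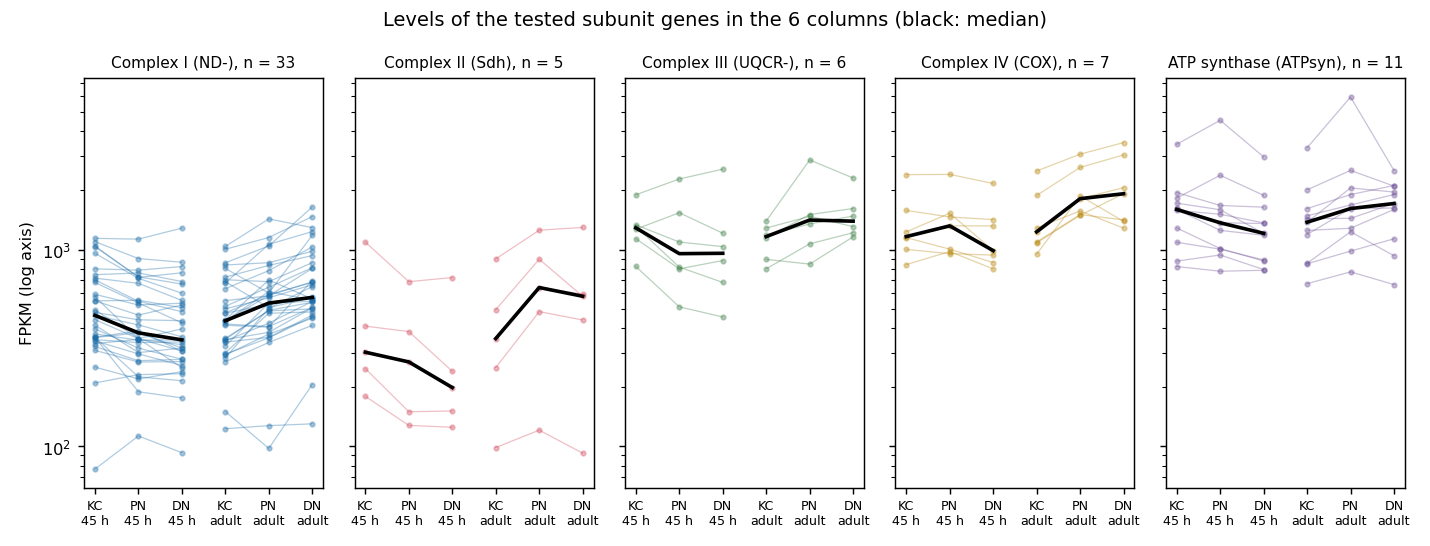
FPKM on a log axis of the 62 genes that are no paralogs and passed the filter, by complex, with 1 line per gene over pupal KC, PN and DN and in the adult and the median in black. Each pupal point is 1 library and each adult point the authors' mean. Complex I medians run from 348 to 572 FPKM and ATP synthase medians from 1209 to 1713 FPKM, and within each stage the median of complex I slopes down from KC to DN in the pupa and up in the adult.

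Together the 81 genes took 5.21%, 5.26% and 5.21% of all FPKM in pupal KC, PN and DN. In the adult they took 7.11%, 9.56% and 11.2%. The pupal shares lay close together, and the adult shares were all higher and ran in the order KC, PN, DN. Part of any share depends on what else is in the column, since the 10 most abundant genes, led by the noncoding gene CR40469 in all columns but adult PN, took 27.8% of pupal KC and 7.53% of adult DN. Among protein-coding genes alone the shares were 6.77%, 6.75% and 6.35% in the pupa and 8.86%, 11.02% and 12.2% in the adult, in the same adult order. In such bulk samples, fewer cells of a type and less RNA per cell cannot be told apart.

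**Figure D2:**
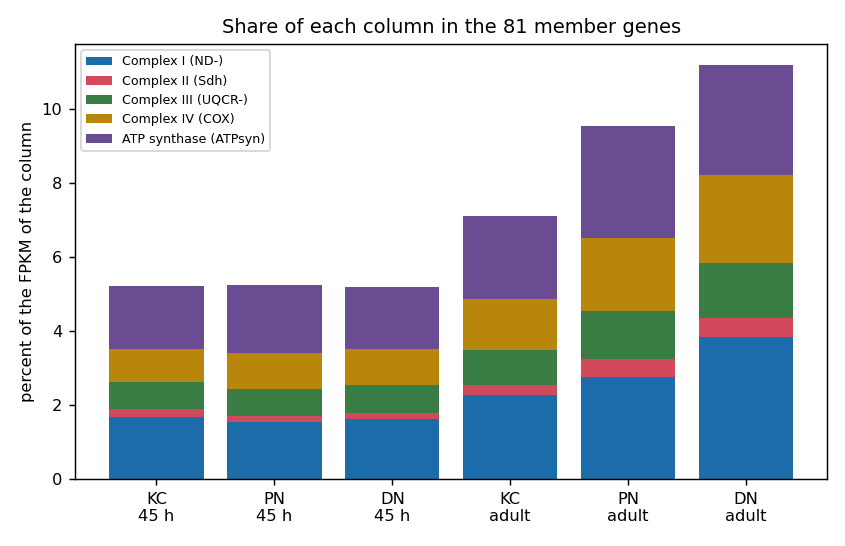
Percent of all FPKM of a column taken by the genes of each complex, stacked, for pupal KC, PN and DN and in the adult. The 3 pupal bars reach 5.21% to 5.26%, and the adult bars reach 7.11% in KC, 9.56% in PN and 11.2% in DN.

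The first comparison is between the pupal brain, in which neurons are still wiring, and the adult brain. Levels were compared as log2(FPKM + 1) over the 8867 genes that averaged 1 FPKM or more, 64 of the subunit genes among them, with limma and additive terms for cell type and stage. That model has 2 residual degrees of freedom. Its SE and p-values rest on how much the cell types disagreed about the stage difference, drawn towards the spread of genes of similar level. That borrowed spread counted for 4.14 degrees of freedom, more than the gene's own. The p-values do not measure variation between flies. Subunit genes leaned to the adult while the typical gene leaned to the pupa. Their median stage difference (adult minus 45 h APF) was 0.32 and 52 of 64 were above 0, against a median of -0.23 and 41.9% above 0 for all genes. None passed the threshold as higher in the adult (8.03% of all genes did) and 1 passed as lower (17% of all genes did), at an adjusted p under 0.05, and 12 of the 64 had an unadjusted p under 0.05 (43% of all genes).

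These counts depended on how the columns were scaled. With each column rescaled to the same total, 21 subunit genes were called higher and 0 lower, with upper quartile scaling 4 and 0, and with quantile normalization 9 and 0. The median over all genes moved with the scaling, from -0.23 to 0.23, -0.08 and -0.07 respectively. The median of the subunit genes lay above that of all genes each time, at 0.84, 0.50 and 0.59. Over all genes the calls were 712 higher and 1505 lower as deposited, and 1425 and 741, 859 and 1135, and 766 and 956 with the other scalings in the same order. Of the 64 subunit genes, 20 had all 3 adult values above all 3 pupal values (15.9% of all genes) and 5 had all adult values below (29.5% of all genes). These counts moved with the scaling too, to 50, 32 and 42 above (26.9%, 19.2% and 19.4% of all genes) and to 2, 3 and 3 below (15.9%, 24.7% and 24.2%).

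**Figure D3:**
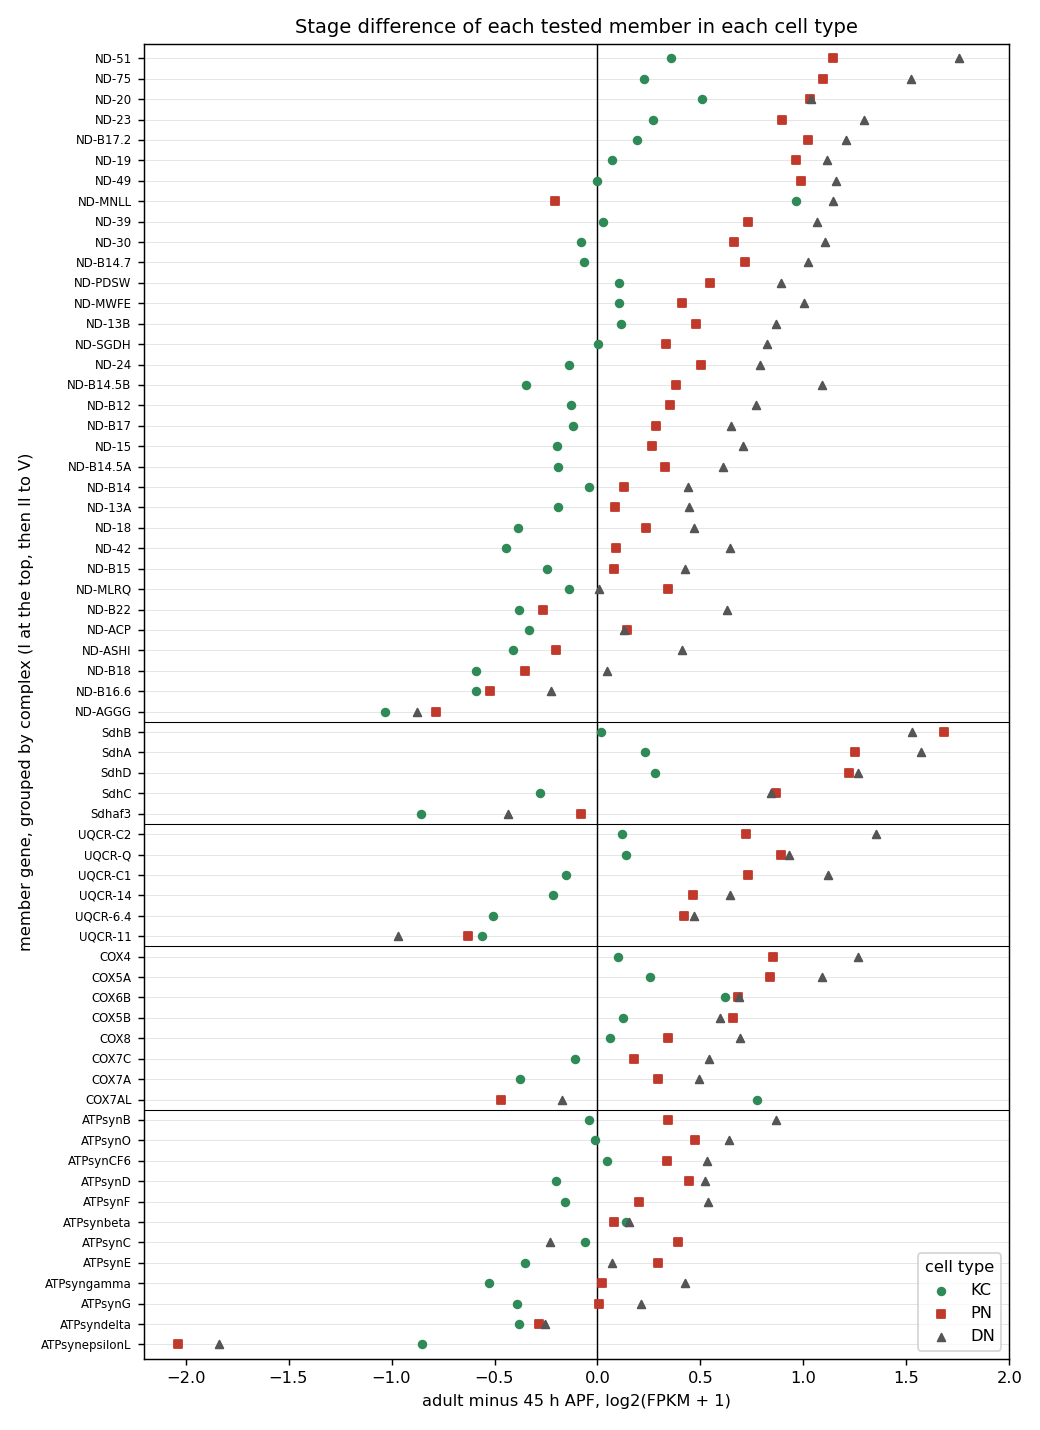
Stage difference of each of the 64 tested genes, adult minus 45 h APF in log2(FPKM + 1), in KC (green circles), PN (red squares) and DN (grey triangles), grouped by complex and sorted within it. No error can be drawn, since each point rests on 1 pupal library and 1 adult mean. In most genes the circles lie left of the squares and triangles, and the KC median is -0.09, which is above 0 under each of the 3 other scalings.

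In complex I, the core subunits had a larger median stage difference than the accessory ones, a contrast between the lists that was not tested. The core of complex I has 7 nuclear subunits, ND-75, ND-51, ND-49, ND-30, ND-24, ND-23 and ND-20, most of which take part in NADH oxidation, electron transfer or quinone binding. All 7 lay above 0, with a median stage difference of 0.82. The 26 other tested ND- genes that are no paralogs, taken here as accessory by name, had a median of 0.25 with 20 above 0. ND-51 (chromosome 2L, 6060842 to 6062757), the subunit that binds NADH and flavin, had 494, 353 and 305 FPKM in pupal KC, PN and DN and 633, 782 and 1031 FPKM in the adult. Every adult column lay above every pupal column, and the order of the cell types was turned around. Its stage difference was 1.08 (SE 0.33, adjusted p = 0.0583 in limma), the largest in complex I and short of the threshold. It passed with each of the 3 other scalings, at adjusted p-values of 0.0221 to 0.0425. ND-75, the large iron-sulfur subunit, stood at 358, 189.6 and 177 FPKM at 45 h APF and at 419, 406 and 508 FPKM in the adult. Pupal PN and DN were far below pupal KC, and the adult columns lay closer together, with a stage difference of 0.95 (SE 0.32, limma adjusted p = 0.0721). ND-49, which forms part of the quinone site, had 441, 353 and 252 FPKM at 45 h APF and 440.4, 701 and 562 FPKM in the adult. As deposited, KC stood at nearly the same level at both stages while PN and DN stood higher in the adult. The KC median of the 7 core subunits was 0.23 as deposited and 0.77 with columns rescaled to the same total. ND-20 stood at 210.1, 232 and 234 FPKM at 45 h APF and at 299, 475 and 482 FPKM in the adult, with groups that do not overlap. Of the 7 core subunits, 6 were called higher with columns rescaled to the same total, 2 with upper quartile scaling and 5 with quantile normalization. Of all 8867 genes, 1425, 859 and 766 were called higher with the same scalings.

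The gene that fell was ND-AGGG (chromosome 3L, 24976254 to 24977118), an accessory subunit of complex I. It had 253, 220.2 and 240.0 FPKM in pupal KC, PN and DN and 123, 128 and 130.3 FPKM in the adult, close to the same change in each cell type. The stage difference was -0.90 (SE 0.23, limma adjusted p = 0.0383), lower in 3 of 3 cell types. The call was lost under each other scaling, with differences of -0.38, -0.72 and -0.50. It was also lost when any 1 column was left out, where the difference was -0.83 to -0.95 and calls over all genes fell too. Without the filter on low values it was lost at a limma adjusted p of 0.114, where 0 of 16854 genes were called. Other accessory subunits spread on both sides of 0. ND-MWFE, a small membrane subunit, had 798, 786 and 819.8 FPKM at 45 h APF, among the narrowest ranges of any gene, and then 857, 1043 and 1645 FPKM in the adult. ND-B15 likewise stood at 349, 337 and 339 FPKM in the pupa and at 294, 356 and 456 FPKM in the adult, and its stage difference was 0.09 (SE 0.25). ND-B16.6 and ND-B18 had differences of -0.44 and -0.30, which turned positive with columns rescaled to the same total.

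Complex II, which is also an enzyme of the citric acid cycle, had the largest median stage difference of the 5 complexes. SdhA, the flavoprotein that oxidises succinate, had 301, 269 and 199 FPKM in pupal KC, PN and DN and 353, 641 and 593 FPKM in the adult. SdhB (chromosome 2R, 6807626 to 6809172), the iron-sulfur subunit, had 248, 150.1 and 151 FPKM in the pupa and 252, 484 and 439 FPKM in the adult. As deposited, SdhB was close to level in KC and 1.68 higher in adult than in pupal PN on the log2 scale. The KC median over SdhA to SdhD was 0.12 as deposited and 0.67 with columns rescaled to the same total. The anchors in the membrane moved the same way in PN and DN, with SdhC at 1089, 687 and 721 FPKM and then 896, 1254 and 1295 FPKM, and SdhD at 408, 383 and 241 FPKM and then 495, 893 and 579 FPKM. Over SdhA to SdhD the median stage difference was 0.97, with 1.02 for SdhA (SE 0.33), 1.08 for SdhB (SE 0.38), 0.48 for SdhC (SE 0.33) and 0.92 for SdhD (SE 0.30), at limma adjusted p-values of 0.0656, 0.0821, 0.307 and 0.0670. SdhA and SdhD passed with each of the 3 other scalings, at adjusted p-values up to 0.0468 and 0.0463, SdhB passed with columns rescaled to the same total and with quantile normalization, and SdhC passed with none. Sdhaf3, the assembly factor, stood apart with 179.6, 128 and 125 FPKM in the pupa and 98.7, 121 and 92.4 FPKM in the adult, a difference of -0.46 (SE 0.26, limma adjusted p = 0.227) that turned positive with columns rescaled to the same total.

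In complex III the median of 6 tested genes was 0.43. UQCR-C2, one of the core proteins, had 821, 512 and 455 FPKM at 45 h APF and 891, 843 and 1160.5 FPKM in the adult (stage difference 0.73, SE 0.32). UQCR-C1, the other core protein, stood at 1309, 814 and 681 FPKM in the pupa and at 1179, 1349.8 and 1479 FPKM in the adult, so that KC was the highest column at first and the lowest later. UQCR-Q, a small subunit, had 1268, 1538 and 1211 FPKM and then 1397, 2850.2 and 2309 FPKM. UQCR-11 ran against the rest of its complex, with 1898, 2282 and 2561 FPKM at 45 h APF and 1286, 1474 and 1307 FPKM in the adult. As deposited, all its adult values lay below all its pupal values, and its stage difference was -0.72 (SE 0.29, limma adjusted p = 0.107). That difference was -0.20 with columns rescaled to the same total, -0.54 with upper quartile scaling and -0.48 with quantile normalization.

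All 7 subunits of complex IV that are no paralogs lay above 0, with a median of 0.46. COX4, a regulatory subunit of the enzyme, had 1149.6, 1005 and 859 FPKM in pupal KC, PN and DN and 1230.4, 1813 and 2063 FPKM in the adult (stage difference 0.74, SE 0.33). COX5A stood at 1581, 1463 and 1421 FPKM in the pupa and at 1883, 2612 and 3024 FPKM in the adult (0.73, SE 0.31). As deposited, every adult column lay above every pupal column in both genes, by little in KC and by much in PN and DN. Both were called higher with columns rescaled to the same total, at limma adjusted p-values of 0.0383 and 0.0362, and not with the other scalings.

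ATP synthase differed least between stages, with a median of 0.13 over 11 genes. ATPsynbeta had a stage difference of 0.13 (SE 0.29), and the rotor stalk genes ATPsyngamma and ATPsyndelta had -0.03 and -0.31, both of which turned positive with columns rescaled to the same total. ATPsynB, part of the peripheral stalk, had the largest difference of the complex, 0.39 (SE 0.30), with 1287, 1011 and 875 FPKM in the pupa and 1250.5, 1283 and 1598 FPKM in the adult. ATPsynCF6, also of the peripheral stalk, moved from 819.8, 776 and 785 FPKM to 847, 982 and 1134 FPKM. Whether the complexes differ from each other in their stage difference was not tested.

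The same comparison taken within each cell type gave 3 different pictures. In KC the median subunit gene was 0.09 lower in the adult on the log2 scale (-0.09, with 25 of 64 above 0, where 39.3% of all genes were), in PN it was 0.35 higher (53 of 64, and 42% of all genes), and in DN 0.64 higher (56 of 64, and 41.9% of all genes), beside medians over all genes of -0.26, -0.30 and -0.17. The direction in KC rested on the scaling, since the KC median was 0.45 with columns rescaled to the same total, 0.08 with upper quartile scaling and 0.36 with quantile normalization, while those of PN (0.51 to 0.82) and DN (0.84 to 1.18) stayed positive. No subunit gene was at least 2-fold higher in adult than in pupal KC (17.9% of all genes were), 7 were in PN (23.3%) and 20 in DN (11.8%). The 20 in DN included 6 of the 7 core subunits of complex I, SdhA, SdhB and SdhD, UQCR-C1 and UQCR-C2, and COX4 and COX5A, and none of ATP synthase. In each cell type 1 gene was at least 2-fold lower, beside 22.6% of all genes in KC, 30.8% in PN and 21% in DN. It was ND-AGGG in KC (-1.03) and the paralog ATPsynepsilonL in PN and DN.

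Markers of other cells moved with these differences. Between 45 h APF and the adult, the summed glia markers went from 2006 to 155 FPKM in PN, from 870 to 374 FPKM in DN and from 196 to 186 FPKM in KC, with 0 of 8 positive in the stage contrast. Muscle markers went from 303 to 7.24 FPKM in DN, and neuron markers (6 genes) from 208, 292 and 459 FPKM in KC, PN and DN to 1088, 3815 and 1018 FPKM. Their part in the stage difference of the subunit genes was not tested. The median stage difference was 0.29 without either of the PN columns, pupal or adult. It was 0.15 without either of the DN columns and 0.50 without either of the KC columns. In the additive fit, the column left over from that cell type carries no stage information. These values therefore cannot tell what the glia or muscle RNA of a pupal column contributed. Subunit genes are also short, with 43 of the 64 in the shortest of 5 equal bins of the tested genes by exon length (at most 999 bases) and 0 in the longest bin. Within that shortest bin the medians in KC, PN and DN were -0.11, 0.34 and 0.64 for the subunit genes and -0.32, -0.41 and -0.21 for all genes.

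The next comparison is between the cell types at each stage. At 45 h APF Kenyon cells, which are known for sparse firing, stood at the top. KC was the highest of the 3 columns for 44 of 64 subunit genes (40.6% of all genes), with a median difference of 0.16 to PN and of 0.26 to DN. This pupal order depended on the scaling. KC was highest for 29 genes (32.7% of all genes) with columns rescaled to the same total, 40 (38.3%) with upper quartile scaling and 34 (44.7%) with quantile normalization. The median of KC minus DN was then 0.0040, 0.16 and 0.13, and that of KC minus PN 0.05, 0.14 and 0.08, the last beside 0.09 for all genes. In the adult the order was reversed. KC was the lowest column for 51 of 64 genes (31.7% of all genes), DN was the highest for 44 (28.9%), and the medians were -0.30 to PN and -0.47 to DN. KC was lowest for 56, 54 and 40 genes with the other scalings (37.2%, 34.2% and 26.1% of all genes). Both held for 37 of the 64 genes, against 7.16% of all genes, and these 37 included SdhA to SdhD, 8 of 11 genes of ATP synthase and ND-49 and ND-51. With other scalings the count was 25, 35 and 20, against 6.7%, 7.36% and 6.73% of all genes.

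Most of these differences were small. ND-75 was the 1 gene at least 2-fold higher in KC than in DN at 45 h APF (difference 1.02, 9.09% of all genes), and ND-B14.5B the 1 at least 2-fold lower in the adult (-1.20, 12.5%). ND-B14.5B, a membrane subunit of complex I, had 359, 386 and 304 FPKM in the pupa and 282, 503 and 649 FPKM in the adult. Between adult KC and PN only UQCR-Q reached 2-fold (-1.03, with 18% of all genes at least 2-fold lower and 11.6% higher). Between adult PN and DN, ATPsynC was 2-fold higher in PN (1.24, 15.4%) and ND-MNLL lower (-1.07, 9.37%). In limma, which averages a cell type over both stages, 0 of 64 subunit genes passed in any of the 3 cell type contrasts. Of all genes, 0.304% passed as higher and 0.485% as lower in KC against PN, 0.293% and 0.462% in KC against DN, and 0.0226% and 0% in PN against DN. None of the 64 had an unadjusted p under 0.05, where 15.5%, 11% and 3.85% of all genes did in the same order. The smallest adjusted p among the subunit genes was 0.417, 0.657 and 0.995. The additive model holds no term for a cell type difference that turns around between stages.

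In most subunit genes KC went down against the other cell types between the stages, whether or not the order turned around. From 45 h APF to the adult, KC minus DN went down for 60 of 64 genes (51.9% of all genes), with a median change of -0.81 beside -0.04 for all genes. KC minus PN went down for 59 of 64 (49.2%), with a median change of -0.50 beside 0.01 for all genes. The 2 counts share the KC columns and are not independent. Both median changes kept their sign under each scaling, at -0.62 to -0.83 against DN and -0.22 to -0.50 against PN. With columns rescaled to the same total, upper quartile scaling and quantile normalization, 4, 4 and 7 of 64 genes went up against DN. Against PN 7, 5 and 17 went up. A full reversal was less common, since KC stood above DN at 45 h APF for 32 of 64 genes with columns rescaled. By group, the median change of KC minus DN was -1.23 for SdhA to SdhD, -1.16 for the core of complex I, -0.92 for complex III, -0.65 for complex IV and -0.60 for ATP synthase. ATPsynbeta kept its differences, with KC minus DN at -0.05 in the pupa and -0.06 in the adult. Since each cell type has 1 value at a stage, an interaction between cell type and stage cannot be tested.

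**Figure D4:**
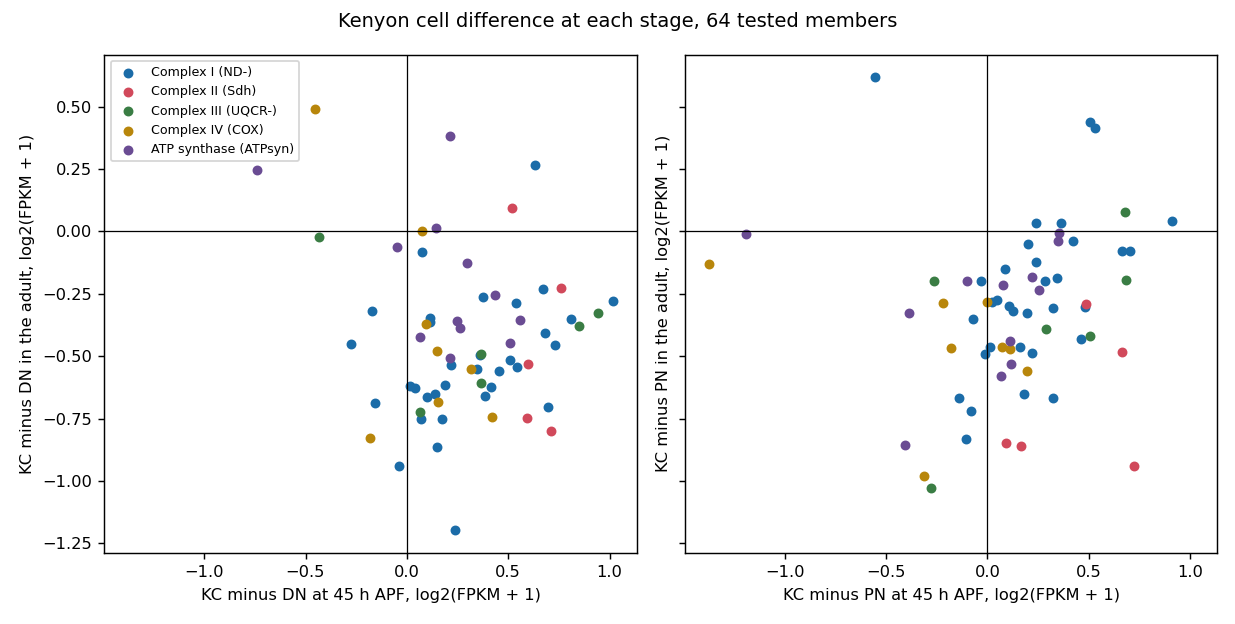
Each point is 1 of the 64 tested genes, coloured by complex, with the KC difference at 45 h APF on the x axis and the same difference in the adult on the y axis, against DN on the left and PN on the right, in log2(FPKM + 1). Most points lie in the lower right area, where KC is higher in the pupa and lower in the adult, and the medians are 0.26 and -0.47 against DN and 0.16 and -0.30 against PN.

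The paralogs form a class of their own. In Drosophila many respiratory genes have a duplicate with expression in the testis, and 16 of the 18 paralogs here have their partner among the 81 genes. COX4L reached 1.97 FPKM in adult PN, against 1813 FPKM for COX4 there, and SdhAL reached 0.419 FPKM in pupal PN, against 269 FPKM for SdhA. Only COX7AL and ATPsynepsilonL passed the filter. COX7AL had 0.974, 4.11 and 1.71 FPKM in pupal KC, PN and DN and 2.37, 2.70 and 1.40 FPKM in the adult, with COX7A at 948 FPKM or more. These 2 paralogs were also the genes for which pupal PN exceeded pupal KC by 2-fold or more (-1.37 and -1.19, 16.9% of all genes). ATPsynepsilonL had 1.52, 4.77 and 3.22 FPKM in the pupa and 0.397, 0.407 and 0.178 FPKM in the adult, with a stage difference of -1.58 (SE 0.50, limma adjusted p = 0.0632). It passed as lower at a pseudocount of 0.1, and its adjusted p over all settings ran from 0.0485 to 0.183. The 8 testis markers summed to at most 1.74 FPKM in any column and none passed the filter.

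Other genes of energy metabolism were set beside the subunits. The 7 subunit genes whose names do not follow the prefixes, such as blw (the alpha subunit of ATP synthase) and RFeSP (the Rieske protein of complex III), had median stage differences of 0.04, 0.47 and 0.65 in KC, PN and DN, with none called, and all 7 were lowest in KC among adult columns. Cyt-c-p, the cytochrome c that links complexes III and IV, rose from 991, 553 and 727 FPKM to 1801, 2095 and 1767 FPKM (1.35, SE 0.31, limma adjusted p = 0.0297). Of 17 genes of the citric acid cycle and pyruvate entry, 6 rose and 1 fell (8.03% and 17% of all genes), with medians of 0.25, 1.11 and 0.89 in KC, PN and DN. With the other scalings 11, 7 and 10 were called higher and 1 lower each time. Of all 8867 genes, 1425, 859 and 766 were then called higher and 741, 1135 and 956 lower. Nc73EF, a subunit of 2-oxoglutarate dehydrogenase, rose from 75.4, 58.7 and 50.0 FPKM to 244, 317 and 150.3 FPKM, and kdn, citrate synthase, from 77.2, 143 and 100.01 FPKM to 137, 698 and 241 FPKM. The gene listed as Sucb, a subunit of succinyl-CoA synthetase, fell from 49.7, 110.2 and 92.7 FPKM to 17.3, 23.8 and 27.5 FPKM.

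Glycolysis genes stood higher in the adult. Of the 11 tested 7 rose and none fell, with median stage differences of 1.499, 1.99 and 1.40 in KC, PN and DN. Over all genes 8.03% were called higher and 17% lower, which is the background for each count of calls in this paragraph. PyK, pyruvate kinase, rose from 89.0, 141 and 85.6 FPKM to 837, 1402 and 1395 FPKM (3.51, SE 0.27, limma adjusted p = 0.00334), and Hex-A, hexokinase, from 8.13, 8.19 and 19.8 FPKM to 103, 231 and 87.7 FPKM. Among carriers, sesB, the ADP/ATP translocase, and Mpcp, the phosphate carrier, rose, by 1.24 and 1.31, and 2 of 6 tested carriers rose in all. Of 12 tested assembly factors 2 rose (the genes listed as CG5037 and CG9065, Cox10 and Cox17 in current annotation) and 1 fell (Sirup, which is Sdhaf4, by -1.99). Of 8 tested regulators of mitochondrial genes Myc rose (2.19), and of 7 genes of mitochondrial chaperones and import none passed in either direction as deposited, while 2, 1 and 1 were called higher with the other scalings.

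**Figure D5:**
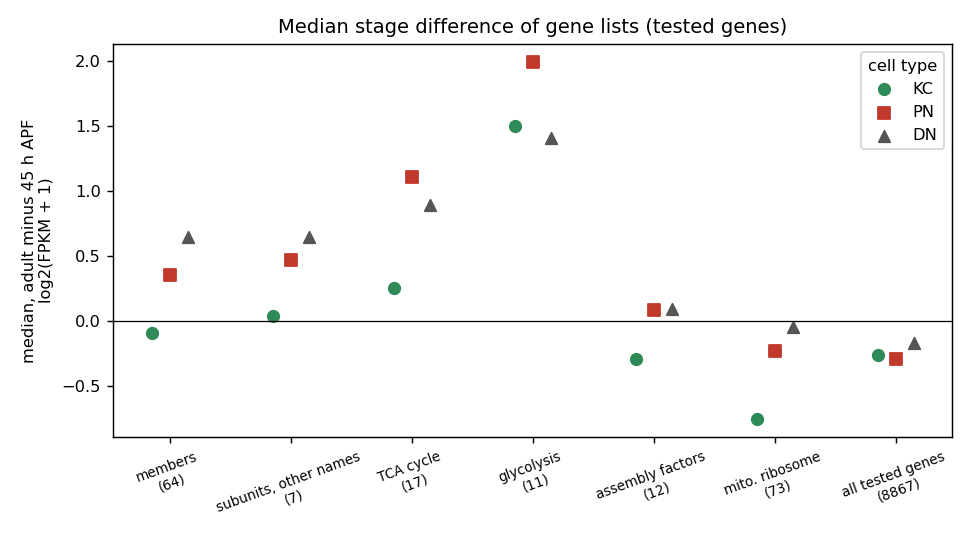
Median stage difference, adult minus 45 h APF in log2(FPKM + 1), of each gene list in KC, PN and DN, with the number of tested genes in brackets. Glycolysis stands at 1.40 to 1.99, the subunit genes at -0.09, 0.35 and 0.64 and all tested genes at -0.30 to -0.17. Of the lists plotted, the KC median of the subunit genes and the medians over the cell types of the assembly factors, mitochondrial ribosomal proteins and all tested genes change sign under at least 1 other scaling.

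The mitochondrial ribosome makes the subunits that the mitochondrial genome encodes. Its 73 nuclear protein genes had median stage differences of -0.76, -0.23 and -0.05 in KC, PN and DN. As deposited, 0 were called higher and 2 lower (mRpL53 and mRpS21), beside 8.03% and 17% of all genes. Those calls were not kept, since each of the 3 other scalings gave 2 called higher and 0 lower. Their median over the cell types was -0.29, which became 0.22 with columns rescaled to the same total and 0.03 with quantile normalization. The change of KC minus DN was of like size in both lists, with a median of -0.76 in the ribosomal proteins and -0.81 in the subunit genes. Of the 73 genes, 37 were highest in pupal and lowest in adult KC, beside 7.16% of all genes. Whether the 2 lists differ in stage difference was not tested.

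Reads of some subunit genes could not be told from those of a neighbour. Of the 81 genes, 35 share exon bases with another gene and 7 share over 25% of theirs. Whether strand was used in counting is not given in the sources used here. ND-MNLL, a small membrane subunit of complex I, lies wholly within CG45089 on the same strand, and UQCR-14 within CG32576 on the opposite strand. ND-MNLL had 76.7, 113 and 92.99 FPKM at 45 h APF and 150.5, 97.7 and 206 FPKM in the adult, and its value is uncertain for that reason, while CG45089 had 499.6, 357 and 382 FPKM and then 655, 617 and 816 FPKM.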

How the data were processed

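RNA of 3 sorted cell types at 2 stages was measured in 9 libraries, per the labels, made from polyA RNA with SmartSeq V2 at an aim of 1 ng RNA and a planned depth of 25 M reads, with equal amounts used for the cell types within 1 replicate. The deposited values are FPKM made by the authors. Per the submitters' processing notes the tools were TopHat and Cufflinks and the build dm6, and the tool versions are not given in the sources used here. The table holds 6 value columns, 1 per pupal library and 1 mean per adult cell type (2 libraries each, per the labels), so adult replicates were not analysed here and p-values do not measure variation between flies or libraries. Counts were not used here, and the adult depth is unknown. Pupal depth was inferred from the steps of low values, of which 90.6% to 94.2% lay within 0.1 of a whole number of reads, and no counting interval is given. The inference assumed a fragment length and took the smallest depth that fitted, since multiples of it fit too.

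Of 16859 lines, 5 whose gene name had become a date were left out. Symbols in Ensembl release 115 gave 12785 matches and synonyms a further 3914, with 155 unmatched, and all 81 subunit genes matched. Genes of the mitochondrial genome were not analysed here. Levels were compared as log2(FPKM + 1), which understates the change of low genes, over genes averaging 1 FPKM or more. The additive fit of cell type and stage used limma 3.58.1 with a mean-variance trend (R 4.3.3), Benjamini-Hochberg adjustment over all 8867 genes and a threshold of 0.05, and was tested on simulated data first. Differences within a stage or cell type are sizes with no test, described at 2-fold. Alternatives were pseudocounts of 0.1 and 5, no filter and a filter of 5 FPKM, 3 other scalings, and leaving out each column.

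Named genes were, per complex, the 2 most abundant, those with the largest and smallest stage difference, those called, those with the widest and narrowest range over cell types, the catalytic or electron-carrying ones, and the paralogs. Others named, such as ND-20, ND-B16.6, ND-B18 and ATPsyngamma, were chosen after their values were seen. The subunit genes and all lists were chosen with earlier results of these data known.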

Additional observations from a re-analysis of the deposited data

Results flagged for a closer look

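In 7 genes the difference between KC and another cell type was at least 0.5 on the log2(FPKM + 1) scale one way at 45 h APF and at least 0.5 the other way in the adult. The size of 0.5 was chosen after the data were seen, each value rests on 1 pupal library and the authors' adult mean, and the difference was not tested. The rule was applied to the values as deposited. The share of all genes that meet it is not given, so the count says nothing about the subunit genes as a group. The pupal sizes depend on the scaling. Over the subunit genes the median of KC minus DN at 45 h APF was 0.26 as deposited. It was 0.0040 with columns rescaled to the same total. Against DN, KC was higher at 45 h APF and lower in the adult for ND-51 (0.69 and -0.70, a change of -1.4), SdhB (0.71 and -0.80, a change of -1.51), SdhA (0.59 and -0.75, a change of -1.34), SdhC (0.60 and -0.53, a change of -1.13), ND-B14.7 (0.54 and -0.54, a change of -1.09) and ND-23 (0.51 and -0.52, a change of -1.03). Against PN, KC minus PN went the same way for SdhB, from 0.72 to -0.94, a change of -1.66, and the opposite way for ND-MNLL, from -0.55 to 0.62, a change of 1.17. SdhA and SdhB form the catalytic part of complex II, SdhC is one of its anchors in the membrane, and ND-51 and ND-23 are core subunits of complex I. ND-MNLL shares all its exon bases with CG45089, as given above.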

How the results depend on the processing

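No paired analysis was possible because the columns hold only the authors' adult means and 1 pupal library per cell type, so that no replicate number pairs samples. Of the counts and medians recomputed under the alternatives, 284 stayed within 1.5 times the count or within the residual spread of the subunit genes (0.31, log2), and the 54 that moved are given here. For single named genes the call was gained 22 times and lost 10 times, the 10 all for ND-AGGG.

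Subunit genes called higher and lower with stage, 0 and 1, were 1 and 2 at a pseudocount of 0.1, 0 lower without a filter, 2 higher at 5 FPKM, 21 and 0 with columns rescaled to the same total, 4 and 0 with upper quartile scaling, and 9 and 0 with quantile normalization. With each column left out, 0 to 1 were called higher and 0 lower. The 1 called higher was SdhB, without adult KC. In each of the fits with a column left out, calls over all genes fell as well. Without a filter limma called 0 of 16854 genes with stage, with 3577 at an unadjusted p under 0.05. The cause was not tested.

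The median stage difference became 0.84 with columns rescaled to the same total, where the medians were 0.45 in KC, 0.82 in PN and 1.18 in DN, and the KC median was 0.36 with quantile normalization. The median of KC minus PN ran from -0.38 to 0.22 over the columns left out, and that of KC minus DN from -0.39 to 0.23, both highest without adult KC, the latter also positive (0.14) without adult DN.

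The counts at least 2-fold apart moved as follows. The shares of all genes under these alternatives are not given, and scaling shifts all genes as well. Over all genes the stage medians in KC, PN and DN were -0.26, -0.30 and -0.17 as deposited. They were 0.15, 0.09 and 0.30 with columns rescaled to the same total. At a pseudocount of 0.1 there were 2 genes for pupal KC and DN, 1 for pupal PN and DN and 3 for KC between stages. At a pseudocount of 5 there were 0 for KC and PN and 0 for KC and DN at 45 h APF. Without a filter there were 2 for KC and PN in the adult, and at 5 FPKM 0 for KC and PN at 45 h APF. With columns rescaled to the same total there were 0 for KC and DN at 45 h APF, 2 and 5 for KC against PN and DN in the adult, and 4, 23 and 46 between stages in KC, PN and DN. With upper quartile scaling there were 0 for KC and DN at 45 h APF, 2 for KC and DN in the adult and 14 between stages in PN. With quantile normalization there were 0 for KC and PN, 0 for KC and DN and 1 for PN and DN in the pupa, 2 for KC and DN in the adult, and 3 and 14 between stages in KC and PN.

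Genes with all adult values above all pupal ones, 20, became 50 with columns rescaled to the same total, 32 with upper quartile scaling and 42 with quantile normalization, and those with all adult values below, 5, became 2, 3 and 3. KC was the highest pupal column for 29 genes with columns rescaled to the same total, and both highest in the pupa and lowest in the adult for 20 with quantile normalization. These order counts were recomputed under alternatives chosen after seeing the data.

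Some stage differences changed sign, and not all of these were small. Over the columns left out, ATPsynC ran from -0.14 to 0.17, COX7AL from -0.32 to 0.30, ND-B15 from -0.082 to 0.25 and ND-MLRQ from -0.064 to 0.17. COX7AL was -0.0024 at a pseudocount of 5. With columns rescaled to the same total, Sdhaf3 went from -0.46 to 0.060, ND-B16.6 from -0.44 to 0.075, ATPsyndelta from -0.31 to 0.21 and ND-B18 from -0.30 to 0.22. ATPsynG, ATPsyngamma, ND-ACP, ND-ASHI and ND-B22 lay at -0.07 to -0.0039 as deposited and at 0.45 to 0.52 with that scaling.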

Other observations

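ND-B8, the 1 subunit gene that is no paralog and stayed under the filter, shares 15.4% of its exon bases with Gs1l on the opposite strand. It stood at 0.489, 0.538 and 0.245 FPKM in pupal KC, PN and DN and at 0, 0.473 and 0.169 FPKM in the adult. Gs1l stood at 104, 72.6 and 49.7 FPKM and then at 268, 340.4 and 322 FPKM. What part the overlap has in the low value was not tested.

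ND-AGGG and UQCR-11 (chromosome 3L, 25120709 to 25126171), the subunit genes with the lowest stage differences apart from a paralog, lie close together near the end of the assembled arm 3L. The window from position 24000000 to the end of 3L, chosen after their values were seen, holds 19 tested genes, both of these included. Their median stage differences were 0.00 in KC, -0.61 in PN and -0.90 in DN, beside -0.26, -0.30 and -0.17 for all genes, and 1 of the 19 was called higher and 4 lower in limma, beside 8.03% and 17% of all genes, so the share called lower is near the background. The median over the cell types was -0.42 and stayed negative, at -0.07 to -0.35, under the other scalings. There the KC median was 0.12 to 0.50 and the calls higher and lower became 4 and 1, 3 and 2, and 2 and 1.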
